A study of Mus musculus with 45 samples.

Results

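The genes described here are 10 genes that were chosen from this study because their RNA was seen to be higher under retinoic acid (RA) late in the time course and because they are known from trophoblast, mesoderm or endoderm and not mainly from the neural plate. They are Gata2, Gata3, Gata4, Gata6, Tfap2c, Hand1, Nrk, Arg1, Rhox6 and Rhox9, and each was found in the count table by its Ensembl gene ID, 10 of 54532 genes. Since the comparison of RA-treated with untreated organoids chose them, their differences between those arms are given as a description and carry no p-value.

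The study grew neuroepithelial organoids, which the labels call neural tube organoids, from R1 mouse embryonic stem cells, a wild-type line, embedded in Matrigel and allowed to grow clonally in N2B27, a serum-free neural differentiation medium. On day 2 the medium was replaced by N2B27 alone (untreated) or by N2B27 with all-trans RA, at 250 nM in the study's methods. Poly(A) RNA of whole organoids was sequenced on day 2 and, in both arms, at 8 h and then every 12 h from 18 h to 78 h. Each of the 15 conditions has 3 biological replicates, which gives 45 libraries, and all of them share the line, the matrix and the basal medium. The sample titles give these times, whereas the treatment text of the labels lists some times differently and gives the same figure for the dose in µM.

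GATA factors are zinc finger transcription factors that bind the letters GATA. Gata2 and Gata3 act in trophoblast, blood and some spinal interneurons, and Gata4 and Gata6 in endoderm and heart. Tfap2c encodes AP-2 gamma, which works beside Gata2 and Gata3 in trophoblast and is also found in surface ectoderm and in primordial germ cells. Hand1 is a basic helix-loop-helix factor needed for trophoblast giant cells and heart. Nrk is an X-linked protein kinase of the placental spongiotrophoblast, Arg1 is arginase, which splits arginine into urea and ornithine, and Rhox6 and Rhox9 are neighbouring homeobox genes of the X-linked Rhox cluster known from placenta and germ cells.

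The 250 bases before the annotated start site are shown for Gata3, Gata2 and Nrk, the 3 of the 10 genes found in the RefSeq promoter table used (build GRCm38.p6), and these 3 genes had their highest level with RA at 78 h, as described below. They are written 5′ to 3′ on the gene's strand, in lower case, with each match to the AP-2 motif GCCNNNGGC in capitals.
Gata3 (chr2:9878601-9878850, minus strand): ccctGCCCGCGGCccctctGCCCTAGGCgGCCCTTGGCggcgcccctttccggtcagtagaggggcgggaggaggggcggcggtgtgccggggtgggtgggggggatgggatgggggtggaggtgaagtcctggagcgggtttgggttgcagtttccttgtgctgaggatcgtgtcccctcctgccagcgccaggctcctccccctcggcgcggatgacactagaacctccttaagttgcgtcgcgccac
Gata2 (chr6:88193641-88193890, plus strand): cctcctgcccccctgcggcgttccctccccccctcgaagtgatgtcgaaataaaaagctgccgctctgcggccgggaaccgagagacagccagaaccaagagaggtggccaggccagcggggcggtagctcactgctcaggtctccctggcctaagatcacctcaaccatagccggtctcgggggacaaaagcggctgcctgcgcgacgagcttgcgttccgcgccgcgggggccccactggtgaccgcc
Nrk (chrX:138914180-138914429, plus strand): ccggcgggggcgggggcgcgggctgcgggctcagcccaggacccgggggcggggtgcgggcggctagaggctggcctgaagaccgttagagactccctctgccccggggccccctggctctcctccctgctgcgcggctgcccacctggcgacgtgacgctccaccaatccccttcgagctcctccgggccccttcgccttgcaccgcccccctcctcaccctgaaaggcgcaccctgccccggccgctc

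The Gata3 window held 3 AP-2 motifs, whose first bases lay 246, 231 and 221 bases before the start site, and the motif reads the same on both strands. An AP-2 motif was present in 13.7% of 32851 windows of the same length, and 3 or more were present in 0.289%. The cut of 3 is the number in the Gata3 window itself. Windows of like GC content were not compared, so nothing is read from this share. The Gata2 and Nrk windows printed held none, and a second Gata2 window that overlaps an annotated exon held 1. None of the 3 genes' windows held the GATA motif on either strand (the core letters GATA after an adenine or thymine and before an adenine or guanine), which 26.5% of windows held, or the nuclear receptor element AGGTCA on either strand, which 14% held. The Gata3 window lies within the annotated span of the gene, upstream of 1 of its transcripts, and overlaps an exon of the antisense gene Gm13256. The GC content was 70.0% for Gata3, 67.2% for Gata2 and 76.4% for Nrk, against a median of 52.4% over all windows. The matches describe letters in these windows and were not tied to binding.

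Library totals ran from 17298632 to 39688686 counts, and levels are given as CPM (the count of a gene relative to the scaled library total) scaled by the trimmed mean of M-values (TMM) over the 45 libraries, so that 3 counts correspond to 0.0756 to 0.173 CPM. A set of 6 libraries stood apart in 4 Y-linked genes (Ddx3y, Eif2s3y, Kdm5d and Uty), with a mean of 1.22 to 3.65 CPM against 22.9 to 89.5 CPM in the other 39. They were replicate 3 of RA at 8 h, all 3 untreated libraries at 30 h and replicates 1 and 3 of RA at 30 h. All libraries from 42 h onwards were in the higher range. Values of 8 h and 30 h are therefore given with and without the library that differs from the rest of its arm. RNA of whole organoids cannot tell more cells of a type from more RNA per cell.

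At 78 h, 9 of the 10 genes were higher with RA in every library than in any untreated library, and Gata4 was the exception. Non-overlap in this direction was seen for 24.7% of 21087 genes at 78 h. In the edgeR fit of that time point, 9 of the 10 genes tested passed an adjusted p of 0.01 and a log2 fold change of 1, against 7.66% of 17059 genes. These counts restate the choice of the genes, and nothing is read from them. The log2 fold change was 6.07 (SE 0.15) for Arg1, 5.09 (SE 0.35) for Hand1, 4.61 (SE 0.11) for Rhox9, 4.59 (SE 0.10) for Rhox6 and 4.51 (SE 0.15) for Gata2. It was 3.98 (SE 0.08) for Nrk, 3.03 (SE 0.15) for Gata3, 2.6 (SE 0.39) for Gata6 and 2.34 (SE 0.08) for Tfap2c. Gata4 had -0.16 (SE 0.19), so its name on the list does not rest on a late difference.

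The genes did not share one time course, and the label late holds for some of them only. Of the members that passed the filter on low counts and the same thresholds, there were 2 of 9 at 8 h (background 1.26%), 7 of 9 at 18 h (8.17%), 1 of 8 at 30 h (5.98%), and 9 of 10 at 42 h (7.49%), 54 h (7.17%) and 66 h (7.06%). Hand1 was removed by the filter at 8, 18 and 30 h and Gata3 at 30 h. The highest RA mean was at 78 h for Gata2, Gata3, Hand1, Nrk, Rhox6 and Rhox9, at 54 h for Arg1, at 18 h for Gata4 and at 8 h for Gata6 and Tfap2c. For Gata6 and Tfap2c the RA libraries of 8 h and 18 h overlapped, and the Tfap2c means were 89.4 and 88.7 CPM. With every library in, these times are thus not separated. For Tfap2c the overlap rests on replicate 3 of RA at 8 h, with 48.9 CPM. Replicates 1 and 2 had 114 and 106 CPM, above every RA library of 18 h (at most 95.5). For Gata6 the overlap remains without replicate 3. From 18 to 78 h of RA the mean level was 60.7 times as high for Hand1, 17.9 for Rhox6, 14.4 for Rhox9, 9.89 for Gata3, 4.35 for Gata2 and 3.61 for Nrk. The same ratio was 1.47 for Arg1, 0.842 for Tfap2c, 0.523 for Gata4 and 0.510 for Gata6. The 18 h libraries are of the earlier library number series and the 78 h libraries of the later one.

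**Figure D1:**
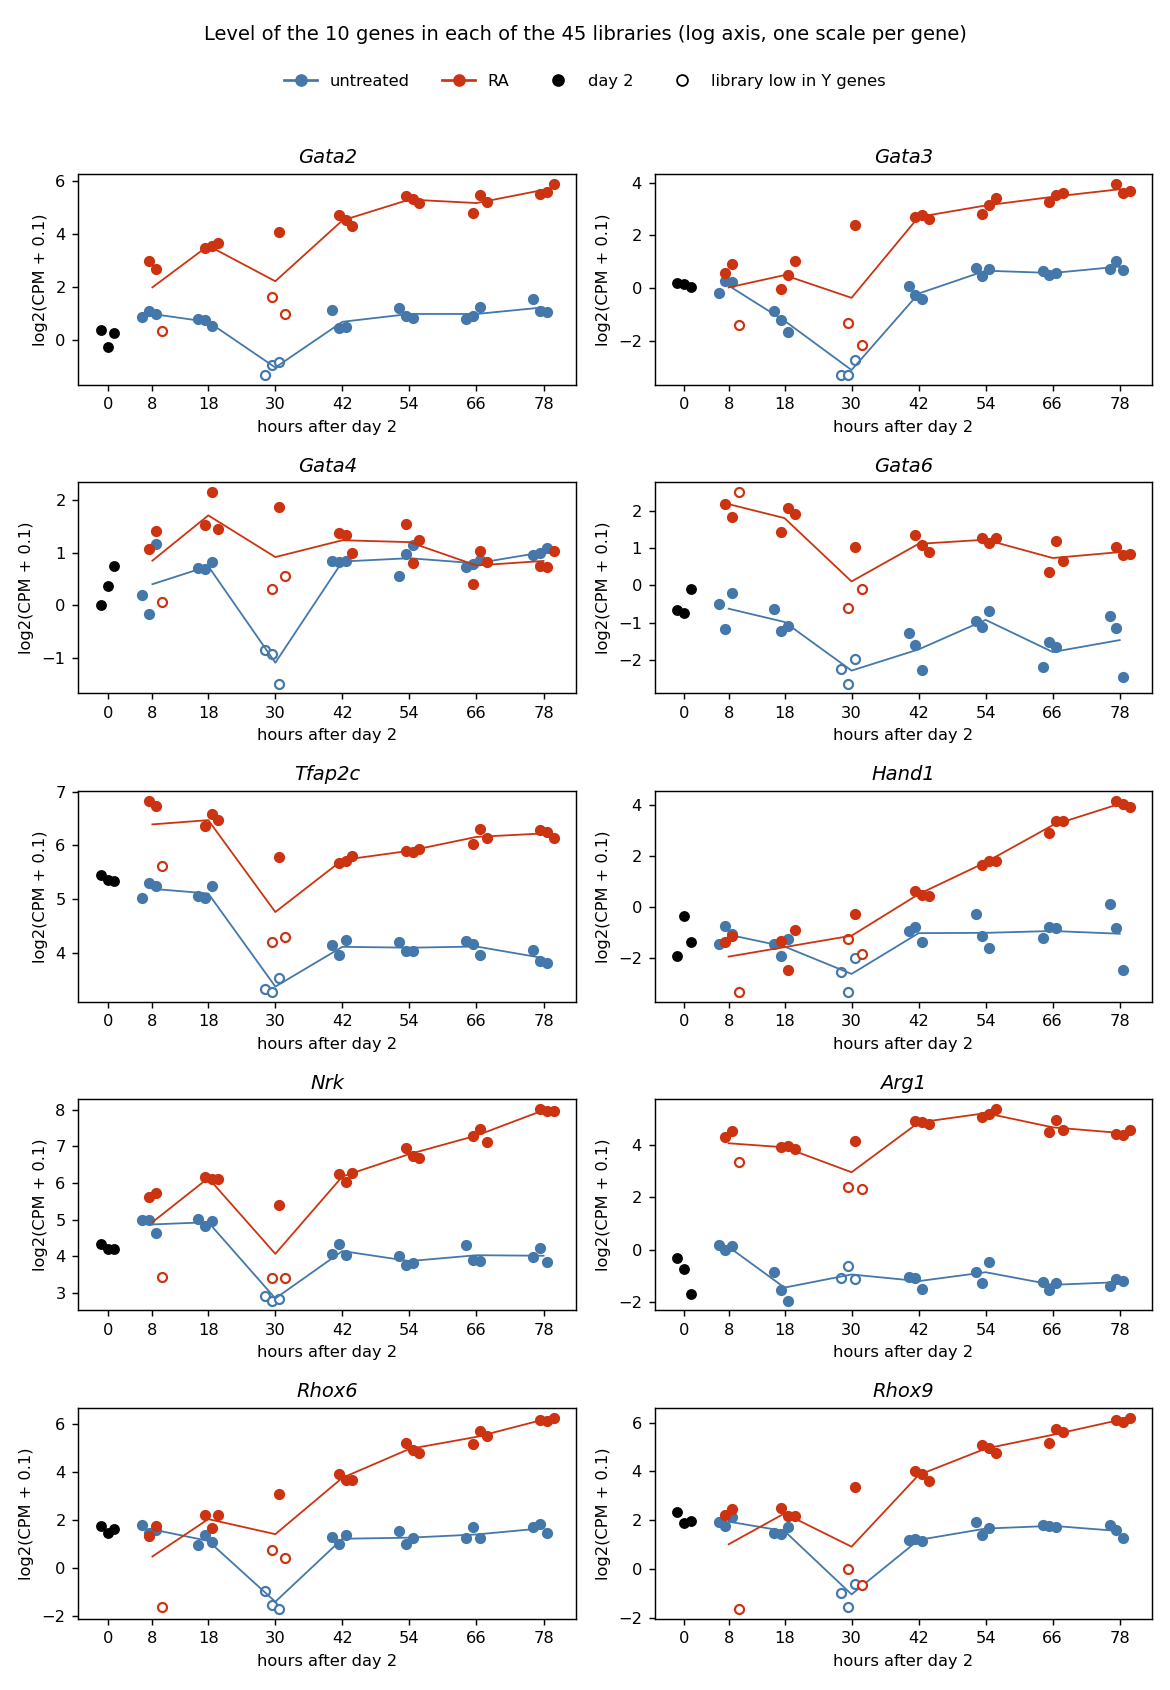
Levels of the 10 genes as log2(CPM + 0.1) on the y axis against hours after day 2 on the x axis, 1 point per library, with lines through the mean of the 3 log values of each arm and open points for the 6 libraries low in Y-linked genes. At 78 h the RA points lie above the untreated points for every gene except Gata4, and single RA libraries stand apart at 8 h and 30 h.

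**Figure D2:**
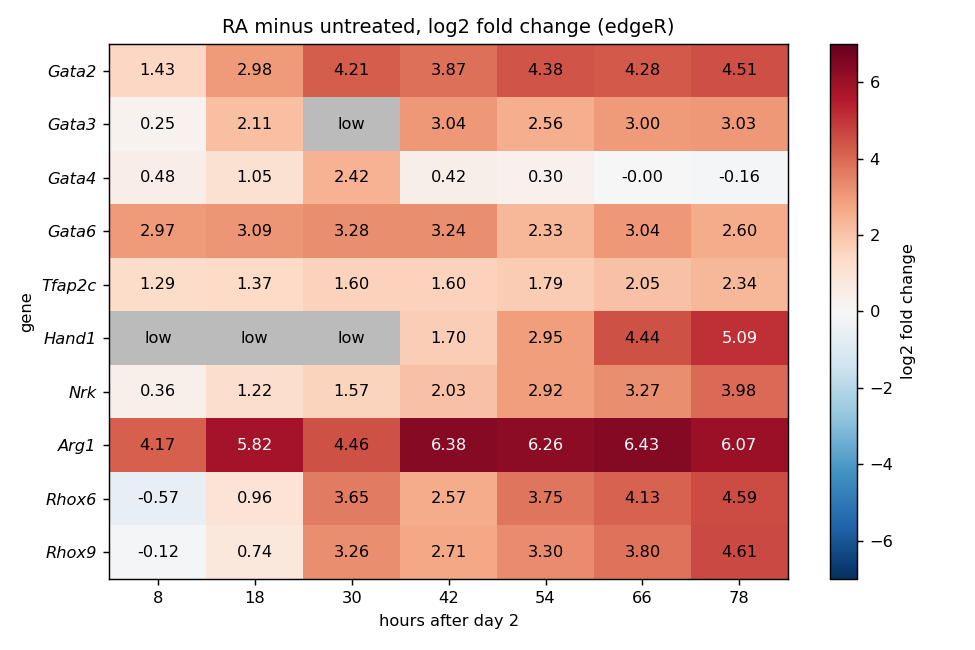
Log2 fold change of RA over untreated (colour and printed value) for each gene (rows) at each time point (columns, hours after day 2), from separate edgeR fits. Grey cells marked low were removed by the filter on low counts. Arg1 is above 4 at every time point, Hand1 grows from 1.70 at 42 h to 5.09 at 78 h, and Gata4 is near 0 from 66 h.

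Gata2 (GRCm38 chr6:88193891-88207032, plus strand) was 1.20, 0.749 and 1.12 CPM on day 2. Without RA it was between 1.29 and 2.81 CPM in every library from 42 h on. With RA it was 11.0, 11.6 and 12.7 CPM at 18 h, where the untreated libraries had 1.62, 1.61 and 1.33. The arms were thus apart at 18 h. The 42 h RA libraries had 26.1, 23.3 and 19.5 CPM. Those of 54 h had 43.0, 39.6 and 36 CPM and those of 66 h 28.0, 45.0 and 37.1. At 78 h the levels were 45.6, 48.0 and 60 CPM with RA and 2.81, 2.05 and 2.01 without. The RA libraries of 54 h and 66 h overlapped, and those of 78 h were above all earlier ones. The highest RA mean was 50.0 times the day 2 mean.

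Gata3 (chr2:9857078-9890034, minus strand) was close to 1 CPM on day 2, at 1.04, 0.999 and 0.913. The untreated libraries had 0.451, 0.330 and 0.213 CPM at 18 h and 0.943, 0.723 and 0.649 at 42 h. With RA the gene was at 0.868, 1.32 and 1.91 CPM at 18 h and at 6.43, 6.72 and 6.10 at 42 h. The RA and untreated libraries did not overlap at either time. Later RA libraries had 6.89, 8.90 and 10.8 CPM (54 h) and 9.46, 11.5 and 12.2 CPM (66 h). Those 2 sets overlap. At 78 h the RA libraries had 15.6, 12.1 and 12.8 CPM and the untreated ones 1.55, 1.96 and 1.51. An antisense gene and a gene on the same strand share some exon bases with Gata3, and no overlapping gene had more than 14 counts in any library.

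Gata4 (chr14:63198922-63271692, minus strand) behaved apart from the other genes. It was at 0.912, 1.20 and 1.58 CPM on day 2 and at 2.78, 4.37 and 2.65 with RA at 18 h, when the untreated libraries had 1.53, 1.53 and 1.68. That difference, 1.05 on the log2 scale (SE 0.22), was larger than at 42 h, where RA libraries had 2.52, 2.44 and 1.89 CPM and untreated ones 1.69, 1.67 and 1.69 (log2 fold change 0.42, SE 0.20). The arms overlapped at 54 h, where RA libraries had 2.85, 1.64 and 2.29 CPM, and at 66 h, where they had 1.23, 1.96 and 1.68. At 78 h the arms again overlapped, at 1.59, 1.57 and 1.96 CPM with RA and 1.83, 1.90 and 2.04 without.

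Gata6, on chromosome 18, had its highest RA mean at the first time point, 8 h, whose RA libraries overlapped those of 18 h. At 8 h it had 4.49, 3.49 and 5.58 CPM with RA and 0.604, 0.348 and 0.770 without, a log2 fold change of 2.97 (SE 0.34). The 18 h RA libraries had 2.6, 4.12 and 3.65 CPM. At 42 h the RA level was lower, with 2.47, 2.02 and 1.77 CPM, and the later RA libraries lay between 1.19 and 2.33 CPM. Those of 78 h had 1.94, 1.67 and 1.68 CPM. RA stayed above untreated at each of the 7 time points, with no overlap. The untreated libraries of 78 h held 28 counts in all 3 together, so that the 78 h fold change rests on few reads.

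Tfap2c (chr2:172549593-172558622, plus strand) had the highest level of the 10 genes on day 2 per length, at 11.3 CPM per kb of merged exons. Its day 2 libraries had 43.7, 41.0 and 40.3 CPM. The untreated level was lower afterwards, with 17.6, 15.4 and 18.9 CPM at 42 h and 16.7, 14.3 and 13.9 at 78 h. The RA libraries of 8 h had 114, 106 and 48.9 CPM, and those of 18 h had 82.4, 95.5 and 88.1. The 42 h set was lower, with 50.9, 52.5 and 55.5 CPM. From there the RA level went up again, through 59.6, 58.5 and 60.8 CPM (54 h) and 64.7, 79.2 and 70.7 CPM (66 h) to 77.9, 75.6 and 70.3 CPM (78 h), where the last 2 sets overlap, while every untreated library from 30 h on stayed below 19 CPM. The log2 fold change went from 1.29 at 8 h to 2.34 at 78 h.

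Hand1 (chr11:57828705-57832818, minus strand) had the largest late increase of the 10. Its day 2 libraries had 0.166, 0.699 and 0.291 CPM, and at 18 h the arms overlapped. The RA libraries of 42 h had 1.44, 1.30 and 1.26 CPM, and those of 54 h had 3.04, 3.45 and 3.43. At 66 h the RA level was 7.37, 10.4 and 10.2 CPM, and the 78 h libraries reached 18.1, 16.5 and 15.2. No RA library of these 4 time points overlapped with those of another of them. Untreated libraries of 78 h had 1.01, 0.476 and 0.0836 CPM, the lowest of which is 3 counts. The standard error of the 78 h fold change was 0.35 for Hand1, against 0.08 for Nrk.

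Nrk (chrX:138914430-139010532, plus strand) reached the highest CPM of the group. It was at 20.1, 18.4 and 18.4 CPM on day 2. RA libraries had 72.2, 69.5 and 69.6 CPM at 18 h and 75.8, 64.7 and 77.6 at 42 h, which overlap. At 54 h the level was 124, 107 and 103 CPM, and at 66 h it was 157, 178 and 139. The 78 h libraries had 260, 250 and 252 CPM, and from 54 h each set lay above the one before it. The untreated libraries of 78 h had 15.6, 18.7 and 14.4 CPM, so the RA libraries lay close together and far from them.

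Arg1 (chr10:24915221-24927484, minus strand) had the largest fold change at 78 h, and it was high from 8 h on. Day 2 libraries had 0.705, 0.5 and 0.208 CPM. At 8 h it had 19.8, 23.3 and 10.1 CPM with RA and 1.04, 0.894 and 1.01 without. The 18 h RA libraries had 15.1, 15.5 and 14.4 CPM, and those of 42 h had 30.3, 29.0 and 27.6. The highest set was that of 54 h, with 33.8, 36.6 and 41.4 CPM. At 66 h the level was 22.3, 31.0 and 24.0 CPM, and the 78 h libraries had 21.3, 20.7 and 24.0, so the last 2 sets overlap. The untreated libraries stayed at 0.622 CPM or less from 18 h on, and the RA level was 84.8 times the untreated level at 42 h and 67.5 times at 78 h. The fold at 42 h rests on 27 untreated counts over 3 libraries, and that at 78 h on 32.

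Rhox6 and Rhox9, whose 2 genes lie on chromosome X at chrX:37826910-37829857 and chrX:37899097-37901770, moved together. Rhox6 had 3.27, 2.70 and 2.99 CPM on day 2 and 15.1, 12.8 and 12.8 with RA at 42 h. The RA libraries of 54 h had 36.8, 30.3 and 27.5 CPM and those of 66 h 36.3, 53.3 and 45.1. At 78 h Rhox6 had 72.8, 69.3 and 77.7 CPM with RA and 3.20, 3.45 and 2.62 without. Rhox9 followed the same course, from 4.93, 3.65 and 3.86 CPM on day 2 to 16.2, 14.9 and 12.2 with RA at 42 h and 34.0, 30.9 and 27 at 54 h. It had 35.3, 53.5 and 48.6 CPM in the RA libraries of 66 h. At 78 h Rhox9 had 68.4, 64.8 and 73.7 CPM with RA and 3.38, 2.97 and 2.29 without. Neither passed a log2 fold change of 1 at 18 h, with 0.96 for Rhox6 and 0.74 for Rhox9. The transcripts of the pair share 109 windows of 75 bases, the read length, which is 11.6% of the windows of Rhox6 and 4.31% of those of Rhox9, so a small part of their reads could belong to either gene.

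Per kb of merged exons, the order of levels on day 2 began with Tfap2c (11.3 CPM per kb), Rhox6 (2.96) and Nrk (2.06). With RA at 78 h it was Rhox6 (72.6), Rhox9 (27.7), Nrk (27.6) and Tfap2c (20.3), then Arg1 (9.88), Gata2 (9.48), Hand1 (8.32), Gata3 (3.40), Gata4 (0.437) and Gata6 (0.271). Rhox9 and Nrk, and likewise Arg1 and Gata2, were within the replicate spread of each other. Lengths come from the annotation and not from the transcripts used in these organoids.

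The patterns of the 10 genes over the 15 condition means, taken as Pearson r of log2(CPM + 1), fell between 0.15 (Gata4 and Hand1) and 0.99 (Rhox6 and Rhox9). Gata3 and Rhox6 had an r of 0.98, Hand1 and Rhox6 0.95, Gata6 and Tfap2c 0.89 and Gata6 and Arg1 0.88. The points share one time course and come in pairs of arms, so these values are a description without a p. They include the 8 h and 30 h means, with the libraries low in Y-linked genes. Every gene except Arg1 had its lowest untreated mean at 30 h. For Nrk the untreated means were 30.5 CPM at 18 h, 7.14 at 30 h and 17.7 at 42 h. The part of this shared dip in the r values was not tested. Among 12423 other genes with at least 5 CPM in some condition, the most alike were Tinagl1, Prkch and Rassf10 for Gata2 (r of 0.99 to 0.97), 3830417A13Rik, Zim1 and Rasgef1b for Gata3 (0.99 to 0.98) and Sfi1, Kcnj12 and Igfbp3 for Gata4 (0.86 to 0.83). They were Tle2, Baz1b and Vsir for Gata6 (0.97 to 0.95), Calcoco2, Gpat3 and F3 for Tfap2c (0.98 to 0.97) and Olr1, Fam90a1b and Shh for Hand1 (0.99). For Nrk they were Ankrd33b, Hbegf and Itgb3 (0.96 to 0.95), for Arg1 Foxa1, Arhgef12 and Trim16 (0.99 to 0.96), for Rhox6 Myl4, Slc16a9 and Wnt3a (0.98) and for Rhox9 Wnt3a and Myl4 (0.98 and 0.97). Of the 30 places, 17 were also among the nearest 3 over the 45 single libraries.

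Within the RA arm, single libraries stood apart at 8 h and 30 h. Replicate 3 of RA at 8 h was at least 2-fold below both other RA libraries for 8 of the 10 genes, against 12.2% of 17863 genes, while Gata6 was higher in it, at 5.58 CPM against 3.49 and 4.49. For Rhox9 it had 0.221 CPM against 4.53 and 5.48, for Rhox6 0.221 against 2.43 and 3.26, and for Nrk 10.8 against 49.3 and 53.1. Replicate 2 of RA at 30 h was at least 2-fold above both others for 10 of the 10 genes, against 7.88% of 19020 genes. It had 5.18 CPM of Gata3 against 0.294 and 0.120, 16.7 of Gata2 against 3.00 and 1.86, and 10.3 of Rhox9 against 0.914 and 0.541. These libraries are the ones whose Y-linked level differs from the rest of their arm, and the part of that difference in the genes' levels was not tested. Nrk, Rhox6 and Rhox9 are X-linked, and the median ratio of replicate 3 to the others at 8 h was 0.954 over 433 X-linked genes and 0.991 over 11746 autosomal ones. The ratio of replicate 2 to the others at 30 h was 0.865 over 467 X-linked genes and 0.967 over 12825 autosomal ones.

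Without replicate 3 of RA at 8 h, 4 of the genes passed the thresholds (background 3.71%), with log2 fold changes of 4.44 for Arg1, 2.78 for Gata6, 1.88 for Gata2 and 1.57 for Tfap2c. Without replicate 2 of RA at 30 h, all libraries compared were low in Y-linked genes, and 5 of the 8 genes tested passed (background 8.96%). These were Arg1 at 3.57, Gata2 at 2.62, Gata6 at 2.58, Rhox6 at 2.18 and Gata4 at 1.69. Tfap2c had 0.85, Rhox9 0.78 and Nrk 0.53. Arg1, Gata6 and Tfap2c were separate between arms with every library in, at both 8 h and 30 h. In the 3 untreated libraries at 30 h Gata3 had 1 count in all, and no fold is given for it there.

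**Figure D3:**
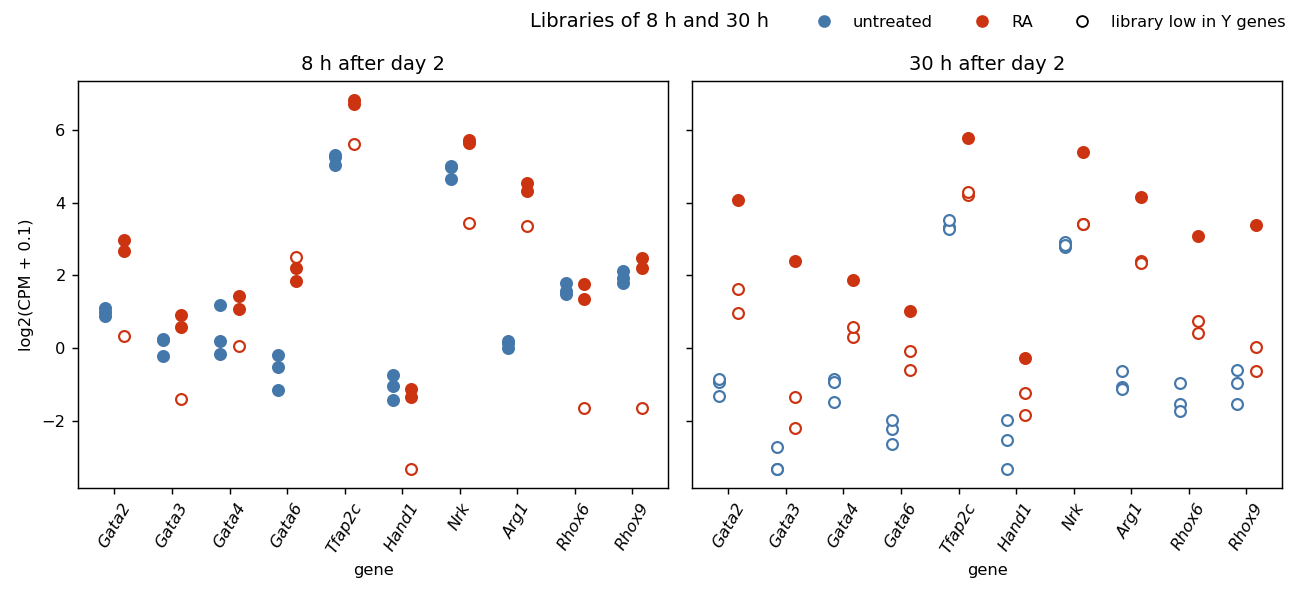
Levels as log2(CPM + 0.1) (y axis) of each gene (x axis) in the 3 untreated and 3 RA libraries of 8 h (left) and 30 h (right), with open points for libraries low in Y-linked genes. Replicate 3 of RA at 8 h lies below both other RA libraries for all genes except Gata6, and replicate 2 of RA at 30 h lies above both others for all 10.

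The change over time without RA was a comparison that the choice did not name, although the untreated libraries are also the reference of the RA contrast. Choosing genes that are higher with RA than in these libraries can favour genes that are low or falling without RA. The counts and p-values below are therefore not independent of the choice and do not allow for it. From day 2 to 42 h, Tfap2c fell by 1.24 on the log2 scale (SE 0.08, edgeR quasi-likelihood, adjusted p = 6.9e-09). It was the only one of the 10 genes called, 0 higher and 1 lower, where 13.2% of 16376 genes were called higher and 8.56% lower. None of the 10 was higher at an unadjusted p under 0.05 or called higher by DESeq2. From day 2 to 78 h, Tfap2c fell by 1.48 (SE 0.08, adjusted p = 5.2e-11) and Gata2 rose by 1.13 (SE 0.26, adjusted p = 0.00091). The 78 h libraries are all of the later library number series, whereas day 2 replicates 1 and 2 are of the earlier one, so time and series are largely confounded here. Of the 9 genes tested, with Arg1 removed by the filter, 1 was called higher and 1 lower, where 20.3% of 16681 genes were higher and 13.6% lower. The Gata2 call was lost without untreated 78 h replicate 1 (0.97) or day 2 replicate 2 (0.95), where the change was under 1, and in one fit of all 45 libraries (1.08, adjusted p = 0.103). The p-values weigh the difference between the groups against the spread between these replicates.

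With RA at 42 h, all 10 genes were higher in every RA library than in any untreated one, as were 28.6% of 20323 genes. At 8 h this held for 3 of 10, Gata6, Tfap2c and Arg1 (16.5% of 19794 genes), with replicate 3 of RA included. In replicates 1 and 2 of RA at 8 h, Gata2, Gata3, Nrk and Rhox9 also lay above every untreated library. Gata4, Hand1 and Rhox6 did not. The share of all genes without replicate 3 was not counted. These counts are tied to the choice of the genes, and nothing is read from them. The other genes of their families and of the tissues in which they are known were counted in 13 lists with 177 genes. Over these lists, 38 of 107 tested genes were called higher and 16 lower at 42 h, against 7.49% and 4.96% of all genes. At 78 h, 51 of 114 were called higher and 6 lower, against 7.66% and 4.03%. All tested genes together had a median log2 fold change of 0.01 at 42 h and 0.0015 at 78 h. The lists were drawn up with results of these data known, so the counts describe the lists. Some of the list genes passed the filter on low counts through the RA libraries alone and could hardly be called lower. Changes of list genes given below as a rise, a fall or a bare value in parentheses are log2 fold changes of RA over untreated at 78 h.

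Of the GATA family and its cofactors, 3 of 8 were called higher at 78 h and none lower, with a median of 0.74. Trps1, an atypical GATA repressor, rose by 1.24 (SE 0.08, adjusted p = 5.7e-07), from 10.4 ± 0.263 to 24.2 ± 1.85 CPM (SD, n = 3 each, untreated and RA, as for all pairs that follow, from edgeR's quasi-likelihood test). The other 2, Gata1 and Gata5, had 0.918 and 0.443 CPM with RA and 0.256 and 0.0333 without. Gata5 entered the test through its RA libraries alone and could hardly be called lower. The count and the median of this list are thus partly set by the filter on low counts. Both AP-2 genes tested rose at 78 h, of 4 on the list. Tfap2a, which acts in neural crest and surface ectoderm, rose from 0.809 ± 0.242 to 4.96 ± 0.420 CPM (log2 fold change 2.64, adjusted p = 2.3e-06), and Tfap2b rose from 3.02 ± 0.583 to 9.65 ± 1.5 (1.70, adjusted p = 1.3e-05). At 42 h Tfap2a and Tfap2b had 0.35 and 0.77 and were not called.

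Of 10 trophoblast stem cell markers, 7 were called higher and 0 lower at 78 h, with a median of 1.64. At 42 h it was 4 higher and 2 lower of 9. Krt7, a keratin of simple epithelia, rose from 2.77 ± 0.942 to 85.8 ± 5.56 CPM (4.98, adjusted p = 2e-09), and Plet1 rose from 0.866 ± 0.400 to 15.7 ± 1.19 (4.23, adjusted p = 6.8e-08). Bmp4, a ligand of the extraembryonic ectoderm and of other tissues, rose by 1.90 (adjusted p = 1.3e-05). Cdx2, which specifies trophoblast in the blastocyst and later acts in the posterior body axis, rose by 1.75 at 78 h (adjusted p = 0.00057) and had been called lower at 42 h (-1.53). Eomes, required for trophoblast stem cells, was not called at 78 h and had 4.74 CPM without RA and 5.94 with it. Elf5 was called higher but had only 0.859 CPM with RA.

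Of 14 differentiated trophoblast markers, 9 were tested at 78 h, with 8 called higher, 0 lower and a median of 2.49. At 42 h it was 5 higher and 0 lower of 6. A gene near 0 without RA, such as Ctsq, entered the test through its RA libraries alone and could hardly be called lower. The count and the median are thus partly set by the filter. Syna, a syncytin of the labyrinth, rose from 0.250 ± 0.0950 to 7.65 ± 0.556 CPM (4.90, adjusted p = 2.1e-08). Mmp9, a matrix metalloproteinase, rose by 2.99 (adjusted p = 1.6e-06). Phlda2 and Peg10, imprinted genes with high placental expression, rose by 2.59 (adjusted p = 5.4e-09) and by 2.49 (adjusted p = 1.3e-09), Peg10 from 501.7 ± 17.3 to 2794 ± 263 CPM. Of the placental lactogen family and the other defining markers, Prl3b1, Prl2c2 and Synb were at 0 in every RA library of 78 h, where 3 counts would be at most 0.173 CPM. Ctsq had 0.00991 ± 0.0172 CPM without RA and 0.428 ± 0.116 with it, and is among the 8 called higher. Tpbpa, with 0.170 ± 0.198 CPM without RA and 0.603 ± 0.144 with it, was the gene tested but not called. Hsd3b6 had 0.00929 CPM without RA and 0.123 with it, and Prl3d1 0 and 0.023, and the filter on low counts removed both. The summed level of the list was 504.3 to 535.2 CPM without RA and 2580 to 3100 CPM with RA at 78 h, most of it Peg10.

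Of 19 extraembryonic endoderm markers, 7 of 16 tested were called higher at 78 h and 10 at 42 h, none lower at either time. Foxa1, with 0.462 ± 0.143 CPM without RA and 14.8 ± 1.20 with it, was also the gene most like Arg1. Foxa1 rose by 5.03 (adjusted p = 4e-09), Sox17 by 4.87 (adjusted p = 1.2e-07) and Foxa2 by 4.58 (adjusted p = 7.6e-09). Foxa1 and Foxa2 are also genes of the floor plate of the neural tube. Sparc and Lamb1, abundant matrix genes of the list, had 187 and 124 CPM without RA and 175 and 121 with it, and were not called. Ttr, a secreted protein of visceral endoderm, was at 0.070 CPM with RA.

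Of 18 surface ectoderm and placode markers, 9 of 14 tested were called higher and 0 lower at 78 h. The keratins of simple epithelia Krt19, Krt8 and Krt18 rose by 3.79, 3.62 and 3.30 (adjusted p = 5.4e-11, 5.4e-11 and 3.6e-10), with Krt8 from 18.1 ± 1.46 to 219 ± 5.70 CPM. Dlx3, a homeobox gene of ectoderm and placenta, rose by 3.58 (adjusted p = 4.4e-09). Cdh1 and Epcam, epithelial adhesion genes of the list, had 239 and 110 CPM without RA and 160 and 65.3 with it, changes under the fold threshold. Of the endothelial and blood markers, Cdh5 rose from 0.762 ± 0.275 to 24.1 ± 0.604 CPM (4.96, adjusted p = 1.9e-09) and Kdr by 1.67 (adjusted p = 0.00016), whereas the globins Hbb-bh1 and Hba-x were at 0 in every RA library of 78 h. Runx1 and Tal1 were not among those called, and 2 of 7 tested genes were higher and 0 lower.

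Of the heart and lateral mesoderm genes, 10 of 15 were tested at 78 h, with 3 called higher and 2 lower and a median of -0.36. Meox1 rose by 2.31 (adjusted p = 6.5e-05) and Isl1 by 1.12 (adjusted p = 0.0012), while T fell by 2.20 (adjusted p = 3.9e-05) and Mef2c fell by 2.16 (adjusted p = 1.6e-05). The third called higher, Osr1, had a log2 fold change of 5.23 at a mean under 1 CPM over the 6 libraries. The Isl1 call was lost in one fit of all 45 libraries (1.12). Hand2, the close relative of Hand1, had 0.0192 CPM without RA and 0.332 with it.

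**Figure D4:**
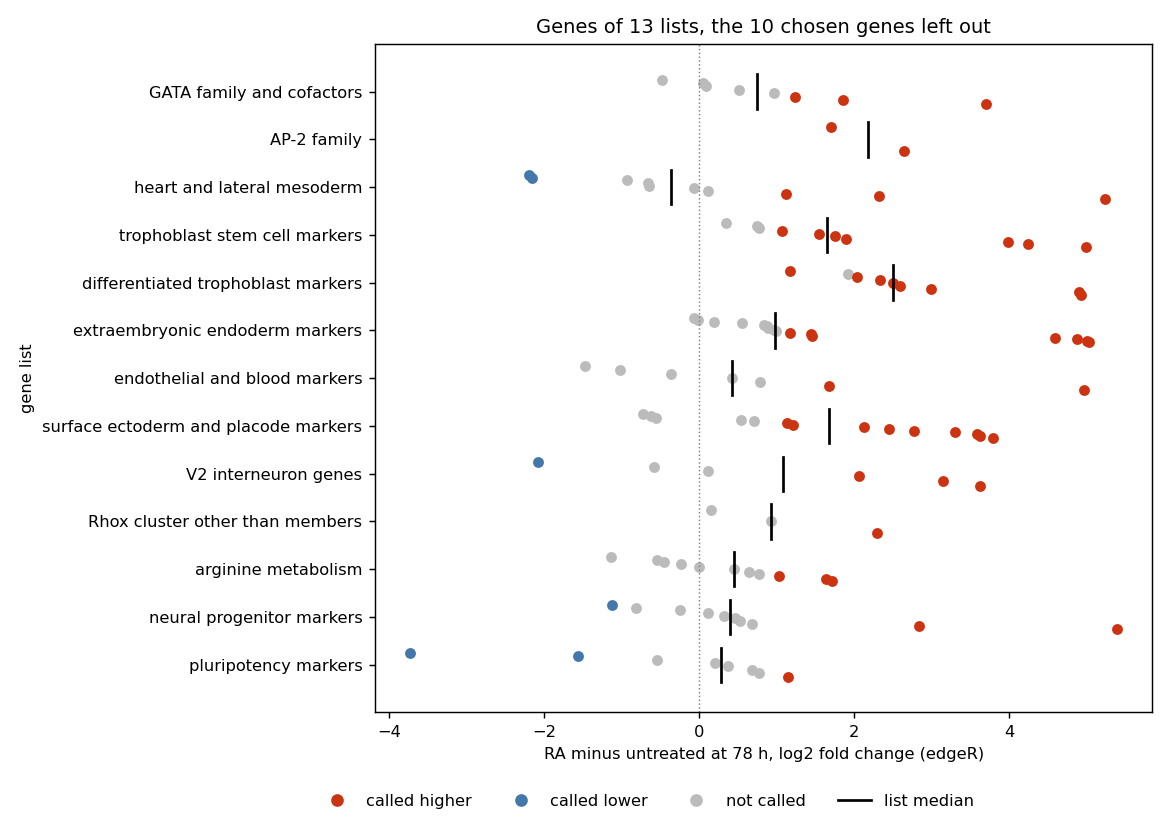
Log2 fold change of RA over untreated at 78 h (x axis) for each tested gene of 13 lists (y axis), with the 10 chosen genes left out, red for called higher, blue for called lower and grey for not called, and a black bar at each list's median. The trophoblast lists have medians of 1.64 and 2.49, the heart and lateral mesoderm list -0.36, and the median of all genes is 0.0015. Some genes passed the filter on low counts through the RA libraries alone, which raises the medians of their lists.

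Gata2 and Gata3 are also genes of V2b spinal interneurons. Of the 8 V2 genes, 6 were tested at 78 h, with 3 higher and 1 lower. Lhx1 rose by 3.62 (adjusted p = 2.1e-07) and Tal2 fell by 2.09 (adjusted p = 8e-05). Lhx4, also called higher, had 2.05 at a mean under 1 CPM. Foxn4, a regulator of V2 progenitors, had 3.03 CPM without RA and 1.99 with it. Of the neural progenitor markers, 2 were higher, 1 lower and 7 not called of 10. Olig2 rose by 5.39 (adjusted p = 1.6e-06), Zic1 by 2.83 (adjusted p = 2.2e-09), and Zic2 fell by 1.13 (adjusted p = 5.4e-07). Their summed level was 1035 to 1167 CPM without RA and 1212 to 1319 with it, and the RA libraries were the higher ones.

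Of the 40 other genes of the Rhox cluster, 3 were tested at 78 h and 23 were at 0 in all untreated libraries of that time. Many genes of the cluster are near-identical copies whose reads the counting could split or drop. Rhox1 rose by 2.29 (adjusted p = 0.00014). Rhox5, the most abundant of the cluster, had 268 CPM on day 2, 69.3 ± 8.35 without RA at 78 h and 131 ± 9.0 with it and was not called. Of 11 arginine genes tested, 3 were higher at 78 h: Nos1 by 1.71 (adjusted p = 1e-06), Nos2 by 1.63 (adjusted p = 8.7e-05) and Ass1, which makes argininosuccinate, by 1.03 (adjusted p = 1.1e-05), the last of which fell under 1 (0.90) without untreated 78 h replicate 3. Of the 8 pluripotency markers, 2 fell and 1 rose. Fgf5, of the epiblast, fell by 3.73 (adjusted p = 1.6e-06) and Pou5f1 fell by 1.56 (adjusted p = 3.1e-05), and Klf4, which also acts in epithelia and trophoblast, rose by 1.15 (adjusted p = 0.0012), under 1 (0.95) without untreated 78 h replicate 3.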

How the data were processed

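RNA was extracted from whole organoids, poly(A)-selected, made into directional libraries and sequenced as single-end reads of 75 bases. The authors deposited counts per gene, whole numbers, one column per library. Per the labels and the study's methods, reads were trimmed with Trim Galore 0.5.0, abundant sequences were removed with Bowtie2 2.3.4.1, the rest was aligned to GRCm38 with STAR, and genes were counted with featureCounts of Subread 1.6.2. The strand setting and the handling of reads that match several places are not given in the sources used here. No column of the table was left without a sample. The depth of each library limits values near 3 counts, which covers counting error only.

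All 54532 genes entered the fits. For each time point the 3 RA and 3 untreated libraries, and for untreated 42 h and 78 h the day 2 libraries, were fitted in edgeR 4.0.16 (R 4.3.3) by its quasi-likelihood test after TMM and filterByExpr (minimum count 10, minimum total 15), with no covariate. A gene counted as called when its adjusted p (Benjamini-Hochberg) was under 0.01 and its log2 fold change over 1 in size. CPM for levels used TMM factors over all 45 libraries. The fit was tested on simulated data first. The alternatives were DESeq2 1.42.0, RLE size factors, library totals, no filter, at least 10 counts in every library, an adjusted p of 0.05 with no minimum fold, a prior count of 2, one fit of all 45 libraries, a replicate block and leaving out each library.

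The members and lists were chosen with earlier results of these data known. Named were all 10 members, the 3 genes most like each over the condition means, and up to 4 genes per list with the largest change among those called at 78 h with at least 1 CPM. Some genes that this rule names are not reported here. List genes named beyond this rule, which are Gata1, Gata5, Osr1, Lhx4, Elf5, Eomes, Sparc, Lamb1, Ttr, Cdh1, Epcam, Runx1, Tal1, Rhox5, Foxn4, Hand2, the globins and the differentiated trophoblast markers near 0, were chosen after their values were seen. Sequences and gene positions come from RefSeq (GRCm38.p6) and GENCODE M21.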

Additional observations from a re-analysis of the deposited data

How the results depend on the processing

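Of the counts of called genes, 119 of 135 stayed within 1.5 times their value under the alternatives and 78 of 90 with 1 library left out. No direction reversed. The counts at 42, 54, 66 and 78 h of the 10 genes called higher with RA stayed within that range. At 8 h the count of 2 was 1 with at least 10 counts in every library and 0 to 4 with 1 library left out, 0 without untreated 8 h replicate 1 and 4 without RA 8 h replicate 3. At 18 h the count of 7 was 4 with at least 10 counts in every library. At 30 h the count of 1 was 6 with no minimum fold at an adjusted p of 0.05, 2 with library totals, 6 with DESeq2, 9 in one fit of all 45 libraries, 7 with no filter, 0 with at least 10 counts in every library and 2 with the replicate block. With 1 library left out at 30 h it was 0 to 5, 0 without untreated 30 h replicate 1 and 5 without RA 30 h replicate 2. With no minimum fold at 0.05, the list genes called lower were 25 at 42 h and 18 at 78 h, against 16 and 6. The same setting gave 3 of the 10 genes lower from day 2 to 42 h without RA, 3 higher and 3 lower to 78 h. One fit of all 45 libraries gave 2 lower to 42 h and 0 higher to 78 h, and with 1 library left out the number higher to 78 h was 0 to 1. With library totals the median over all genes, on the log2 scale, became 0.14 at 18 h and 0.18 at 30 h. For single genes with a test, 492 of 501 kept their call under the alternatives and 338 of 342 with 1 library left out. The cause of these changes was not tested.

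The main fits did not pair libraries by replicate number. Whether same-numbered libraries share a culture is not known, and the correlations below cannot decide it. The mean correlation of same-numbered libraries ran from -0.23 to 0.285 over 9 comparisons, and in 1 of them, 66 h, was every pair over 0.1. The replicate block changed no other count by more than 1.5 times.

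The limits lie in depth and in number. Gata6, Arg1 and Hand1 had few counts without RA at 78 h, with 28, 32 and 47 over the 3 libraries. The standard errors of Gata6 and Hand1 at 78 h, 0.39 and 0.35, were the largest of the 10, and 3 libraries per condition leave spread poorly known. Whole-organoid RNA gives no cell of origin. All 3 untreated libraries at 30 h were low in Y-linked genes, so that condition and that property cannot be told apart there.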
